A study of Mus musculus with 47 samples.

Results

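Leukocyte adhesion molecules and integrins were followed across the lungs of mice given ragweed pollen protein or PBS. The members were 9 named genes of the 16366 genes annotated on the arrays, and every probe set annotated to 1 of them was read, 15 in all. The endothelial ligands and selectins were Vcam1, Icam1, Icam2, Sele and Selp, and the leukocyte integrin subunits were Itgam, Itgb2, Itga4 and Itgax. RNA from mouse lung had been hybridised to Affymetrix murine U74 arrays A, B and C, and each of these existed as a first version and as version 2. There were 4 groups of 2 samples, coded 1a and 1b. The 2 ragweed groups, taken at 24 h and at 72 h, were mice sensitised to ragweed with alum, an adjuvant, on days 0 and 3, then challenged with ragweed through the trachea on days 10 and 17, and were killed after a further 24 h or 72 h. The 2 PBS groups, of the same times, were mice given PBS in place of ragweed on the same days. Alum is named in the labels of the ragweed samples only, so an effect of ragweed and an effect of alum cannot be told apart here. The labels give neither strain nor age and leave unsaid whether 1a and 1b came from different mice. The p-values here therefore reflect how far apart these samples lie, and that spread may be technical.

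A leukocyte leaves the blood in steps. E-selectin and P-selectin, encoded by Sele and Selp, sit on activated endothelium and catch passing leukocytes on sugar ligands. Rolling cells then stop when integrins on their surface bind immunoglobulin-family ligands on the vessel wall. The beta 2 chain encoded by Itgb2 pairs with alpha chains, among them CD11b (Itgam) on neutrophils and macrophages and CD11c (Itgax) on dendritic cells and alveolar macrophages, and these dimers bind ICAMs and other ligands. The alpha 4 chain (Itga4), paired with a beta 1 or beta 7 chain, binds VCAM-1 and is used by eosinophils and lymphocytes to enter allergic airways. In whole lung, transcripts of the ligands come largely from endothelium and epithelium, and those of the beta 2 integrins from leukocytes. In such bulk RNA, fewer cells of a type and less RNA per cell cannot be told apart.

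RefSeq promoter sequence (build GRCm38.p6) was given for 6 of the 9 members: Icam1, Sele, Selp, Itga4, Itgam and Itgax. It was searched on both strands, over the 250 bases before the start, for GGNNNTTCC (a core bound by NF-kappaB), GAGGAA (the purine-rich box of PU.1, a myeloid factor, and its relatives) and TATAAA. Of 32851 promoters searched in the same way, 15.7% held GGNNNTTCC, 23.3% held GAGGAA and 12.4% held TATAAA. Icam1 held GGNNNTTCC at 2 places, of which 1 matches the motif on both strands. Sele held each of the 3 motifs once, Selp held GGNNNTTCC once, and Itgam held GAGGAA at 2 places, 1 on each strand. Itgax and Itga4 held none of these letters in the window. 3 of the stretches are shown because Icam1 and Itgam carry the NF-kappaB and PU.1 letters that such genes are known for, and because Itgax was the member called on version 2 A. Capitals mark the motif matches, none of which overlap, and the coordinates are chr9:21015690-21015939 for Icam1, chr7:128062390-128062639 for Itgam and chr7:128129300-128129549 for Itgax, all on the plus strand.
Icam1: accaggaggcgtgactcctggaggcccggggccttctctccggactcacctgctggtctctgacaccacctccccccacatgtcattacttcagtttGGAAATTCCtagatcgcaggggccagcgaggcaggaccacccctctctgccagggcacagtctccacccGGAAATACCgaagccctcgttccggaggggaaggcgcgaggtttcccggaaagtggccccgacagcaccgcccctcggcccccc
Itgam: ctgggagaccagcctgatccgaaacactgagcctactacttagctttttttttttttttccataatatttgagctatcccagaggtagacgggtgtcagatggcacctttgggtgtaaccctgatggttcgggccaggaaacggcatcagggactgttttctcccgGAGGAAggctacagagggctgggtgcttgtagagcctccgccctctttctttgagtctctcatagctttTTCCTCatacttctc
Itgax: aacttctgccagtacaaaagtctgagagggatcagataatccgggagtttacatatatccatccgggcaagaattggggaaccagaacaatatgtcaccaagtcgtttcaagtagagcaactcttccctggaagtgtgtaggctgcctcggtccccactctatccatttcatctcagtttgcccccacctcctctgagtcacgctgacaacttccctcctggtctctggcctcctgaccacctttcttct
A match is a description of the letters and not a bound site.

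Values are linear intensities, 1 per probe set and array. The main values come from the first-version A array, which has all 4 groups, after scaling and quantile normalisation, and from version 2 B for 1 probe set of Itga4. An intensity under the 40th percentile of a table, 291.6 on first-version A, was treated as too dim to measure. This level is called the floor. A probe set was tested if it was above the floor on at least 2 arrays, which left 25250 probe sets, 9 of them for 6 members. Precision is limited by how few arrays there are: the 2 arrays of a group had an r of 0.947 to 0.96 over probe sets on first-version A, and the median standard error (SE) of a log2 difference there was 0.23. On the first-version arrays the authors had scaled the ragweed arrays and not the PBS arrays, so that step and the treatment cannot be told apart there. On version 2 all arrays had been scaled alike. The PBS samples of 72 h stood apart from the other samples. Their summed intensity over 7 squamous epithelium markers was 44120 and 46090, against 13120 to 17900 in the other 6 samples, and over 12 heart and skeletal muscle markers 31840 and 33580, against 15420 to 20890. Of these genes 4 squamous (Lce3a, Sbsn, Krt4 and Krt13) and 2 muscle markers (Nppa and Myl7) were called lower in ragweed at 72 h, and 1 muscle marker (Acta1) was called higher in ragweed at 24 h. The part of this in the results at 72 h was not tested, and the 72 h differences of members measured on the A array, and of the leukocyte and endothelial markers called at 72 h, are also given against the PBS samples of 24 h.

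None of the 9 tested probe sets passed the test in any of the 6 comparisons on the main arrays (limma, Benjamini-Hochberg adjusted p under 0.05). Among all tested probe sets, 58 (0.23%) were called between ragweed and PBS at 24 h and 133 (0.527%) at 72 h, so that fewer than 1 call among 9 would match the background. At an unadjusted p under 0.05, 1 of the 9 passed at 24 h (Icam2; 8.67% of all probe sets did) and 1 at 72 h (Itgb2; 9.63% of all). On the version 2 A array, which had no ragweed samples of 24 h, Itgax was called: it was 2.38-fold higher in ragweed than in PBS lungs at 72 h, where 2.09% of 8044 probe sets were called. This call was lost without any 1 of the 4 samples of 72 h. Those fits leave 1 sample in a group and called fewer probe sets over the whole array. The PBS samples of 72 h on that array had a low 3' to 5' beta-actin ratio, 0.189 and 0.198. The 3 measured integrins had a median log2 difference of 0.51 at 72 h (range 0.07 to 0.67), and the 3 measured ligands one of 0.09 (range -0.28 to 0.40). Over all 12840 measured genes the median was 0.00. At 24 h the medians were 0.18 for the integrins and -0.38 for the ligands. Ligands and integrins each had 0 calls in either direction at both times.

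**Figure D1:**
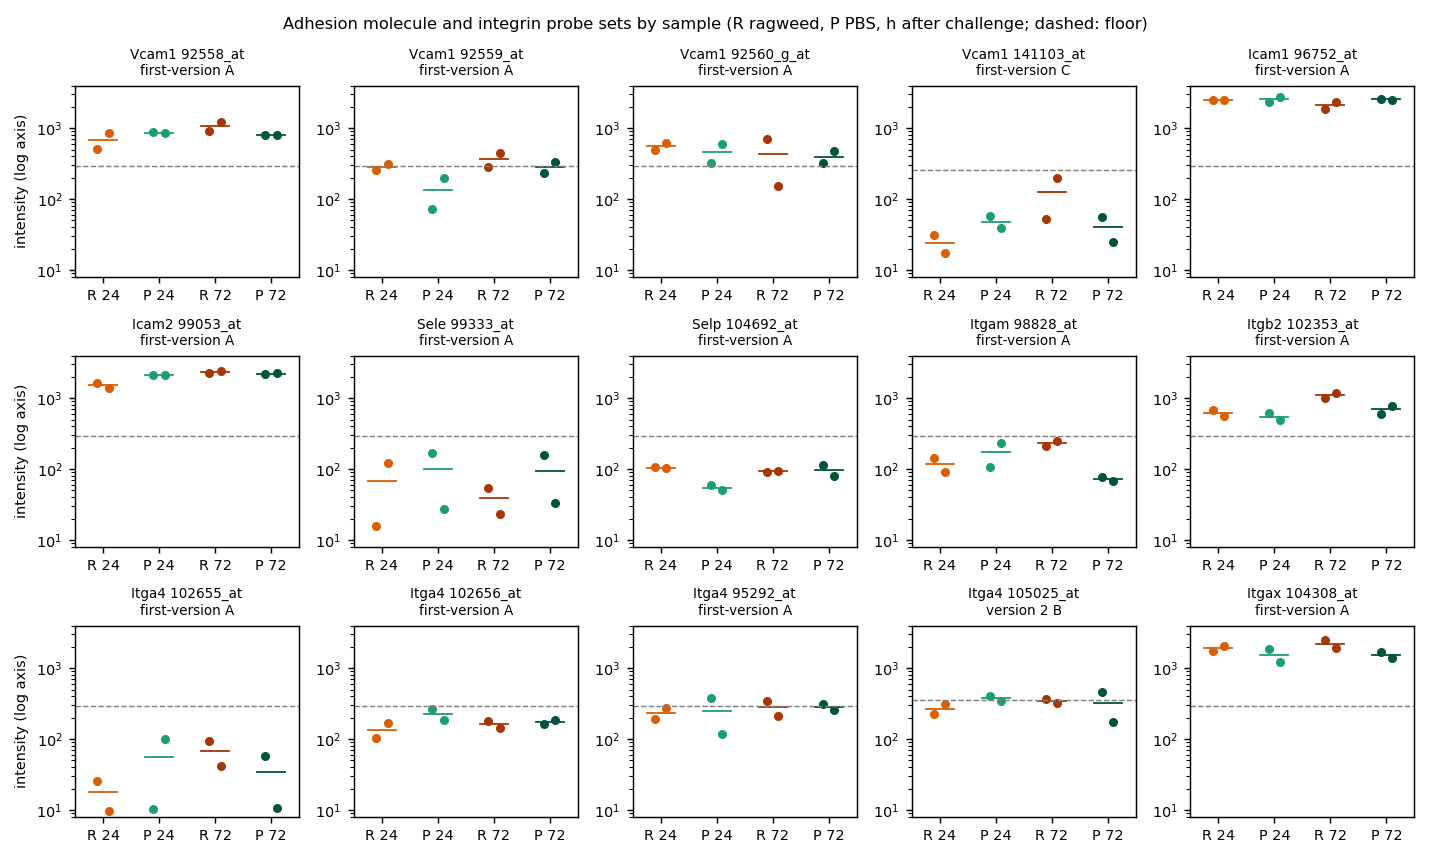
Intensity of the 15 member probe sets in each of the 8 samples, on a log axis, with the 4 groups in the order ragweed 24 h, PBS 24 h, ragweed 72 h and PBS 72 h (points are samples 1a and 1b, bars are group means, the dashed line is the floor of the array). Icam1, Icam2, Itgb2 and Itgax lie above the floor in every sample, while Sele, Selp, Itgam and the Vcam1 probe set on the C array lie below it in every sample.

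Among the endothelial ligands, Vcam1, the ligand of alpha 4 integrins, was read by 3 tested probe sets. With 92558_at it had 923.7 and 1240 in ragweed and 815.9 and 808.8 in PBS lungs at 72 h. At 24 h the same probe set gave 514.3 and 851.0 in ragweed lungs, against 874.4 and 851.5 in PBS lungs. Both ragweed samples were higher than both PBS samples at 72 h and lower at 24 h, where 1 of them, at 851.0, lay next to the PBS values. The log2 difference was 0.40 ± 0.29 (SE, n = 2 per group; limma adjusted p = 0.733) at 72 h and -0.38 ± 0.29 (limma adjusted p = 0.777) at 24 h. The difference between these responses, 0.78 ± 0.41, did not pass the test (limma adjusted p = 0.752; 9 probe sets, 0.0356%, were called in that comparison, and 7.35% had an unadjusted p under 0.05). Within the ragweed groups, 72 h was 0.69 ± 0.29 above 24 h on the log2 scale (limma adjusted p = 0.449).

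The other tested Vcam1 probe sets, 92559_at and 92560_g_at, are annotated to the same gene and read the same samples, so they are not independent of 92558_at. With 92559_at, ragweed at 72 h gave 283.3 and 450.0 and PBS at 72 h gave 231.1 and 334.9, on either side of the floor. With 92560_g_at the ragweed samples of 72 h differed widely, at 705.1 and 155.0, and the PBS samples of 72 h gave 324.6 and 472.6. The log2 differences at 72 h were 0.21 ± 0.20 and 0.21 ± 0.46, with groups that overlapped. At 24 h 92559_at gave 0.04 ± 0.20 and 92560_g_at 0.31 ± 0.46, where 92558_at was negative, so the Vcam1 probe sets did not share a direction at that time. These values depended on the floor. With the floor at the 20th percentile, 92560_g_at at 72 h turned to -0.24 ± 0.67, and 92559_at gave 0.97 ± 0.48 at 24 h (limma adjusted p = 0.687) and 0.36 ± 0.48 at 72 h. Ragweed lungs of 72 h differed from the earlier PBS lungs, those of 24 h, by 0.31 ± 0.20 with 92559_at and 0.02 ± 0.46 with 92560_g_at. A further Vcam1 probe set, 141103_at on the first-version C array, lay between 17.55 and 197.6 in all 8 samples, below that array's floor of 254.2.

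Icam1, the ligand of beta 2 integrins that is known to be induced by inflammatory cytokines, differed little at 24 h. Its probe set gave 2545 and 2526 in ragweed lungs and 2335 and 2803 in PBS lungs at 24 h, so that the ragweed samples lay between the PBS samples. At 72 h it gave 1849 and 2378 in ragweed and 2595 and 2504 in PBS lungs, and both ragweed samples were lower. The log2 difference was -0.01 ± 0.15 at 24 h, with a 95% interval of -0.36 to 0.33. At 72 h it was -0.28 ± 0.15, with an interval of -0.63 to 0.06 (limma adjusted p = 0.634). With PBS at 24 h as the baseline, the 72 h ragweed lungs differed by -0.29 ± 0.15 (limma adjusted p = 0.541).

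Icam2, an ICAM that resting endothelium carries at all times, had the smallest unadjusted p of the members at 24 h. It gave 1654 and 1387 in ragweed lungs and 2105 and 2127 in PBS lungs at 24 h. Both ragweed samples lay below both PBS samples, by a log2 difference of -0.48 ± 0.13, with an interval of -0.78 to -0.18. The adjusted p was 0.298 (limma), which did not pass. At 72 h the values were 2284 and 2441 in ragweed lungs against 2172 and 2274 in PBS lungs, a difference of 0.09 ± 0.13, and of 0.16 ± 0.13 from the PBS samples of 24 h. In the order of its group means Icam2 was lowest in ragweed at 24 h, then came PBS of 24 h, PBS of 72 h and ragweed of 72 h. No neighbours in that order overlapped, but the gap at 72 h was narrow, from 2274 in PBS to 2284 in ragweed lungs. The share of all probe sets with groups so separated was not counted. On version 2 A ragweed of 72 h lay below both PBS groups instead. On first-version A, ragweed at 72 h was 0.64 ± 0.13 above ragweed at 24 h, with an adjusted p of 0.133 by limma. The ragweed response differed between the times by 0.57 ± 0.18 (limma adjusted p = 0.56). In all, 77 probe sets (0.305%) were called between the ragweed times. At an unadjusted p under 0.05, 3 of the 9 member probe sets passed in that comparison, those of Icam2 and Itgb2 and 92558_at of Vcam1, and 10.6% of all probe sets did.

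The selectins were too dim to test. Sele gave 15.53 and 121.6 in ragweed and 169.8 and 27.68 in PBS lungs at 24 h, and 53.63 and 23.56 in ragweed and 157.6 and 32.86 in PBS lungs at 72 h. All 8 values lay below the floor, with replicates far apart. Selp gave 106.4 and 103.1 in ragweed and 58.95 and 50.78 in PBS lungs at 24 h, and 90.51 and 94.46 in ragweed and 113.7 and 78.72 in PBS lungs at 72 h. On version 2 A, Sele lay between 6.599 and 116 and Selp between 38.01 and 82.61, again all below the floor of 237.8. With the floor lowered to the 20th percentile, the 72 h log2 differences were -0.29 ± 0.33 for Sele and -0.05 ± 0.22 for Selp.

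Among the leukocyte integrins, Itgb2, the beta chain shared by the CD11 integrins, gave 1011 and 1190 in ragweed lungs and 604.9 and 785.5 in PBS lungs at 72 h. Both ragweed samples of 72 h were above all 6 other samples, which ran from 486.0 to 785.5. At 24 h it gave 692.5 and 552.5 in ragweed and 609.2 and 486.0 in PBS lungs, which overlapped. The log2 difference was 0.67 ± 0.27 at 72 h, with an interval of 0.04 to 1.30, and had an adjusted p of 0.487 (limma). At 24 h it was 0.18 ± 0.27. Against the PBS samples of 24 h, ragweed at 72 h was 1.01 higher on the log2 scale (limma adjusted p = 0.18), and within the ragweed groups 72 h was 0.83 ± 0.27 above 24 h (limma adjusted p = 0.32).

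Itgax, which encodes CD11c, gave 2461 and 1944 in ragweed and 1680 and 1397 in PBS lungs at 72 h on first-version A. At 24 h it gave 1724 and 2077 in ragweed and 1844 and 1205 in PBS lungs. The ragweed samples of 72 h lay above their PBS samples, while at 24 h the groups overlapped. The log2 differences were 0.51 ± 0.23 at 72 h, with an interval of -0.02 to 1.04 (limma adjusted p = 0.535), and 0.34 ± 0.23 at 24 h (limma adjusted p = 0.752). With PBS at 24 h as the baseline, the 72 h ragweed lungs differed by 0.55 ± 0.23 (limma adjusted p = 0.405). Averaged over both times the difference was 0.43 ± 0.16, with an adjusted p of 0.385 (limma); 164 probe sets (0.65%) were called in that average, and 11.1% had an unadjusted p under 0.05.

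Itga4, which pairs to form the VCAM-1 receptor, was read by 4 probe sets, of which 2 were tested. With 95292_at it gave 349.8 and 211.6 in ragweed and 316.8 and 254.8 in PBS lungs at 72 h, and 194.8 and 270.2 in ragweed and 383.3 and 116.5 in PBS lungs at 24 h. With 105025_at on version 2 B, whose floor was 356.4, it gave 372.1 and 324.8 in ragweed and 462.3 and 176.0 in PBS lungs at 72 h, and 226.0 and 311.2 in ragweed and 409.9 and 345.9 in PBS lungs at 24 h. The samples fell on either side of the floor within most groups, so these fits rest on few measured values. The log2 differences were 0.07 ± 0.17 and -0.16 ± 0.18 at 72 h, and -0.20 ± 0.17 and -0.10 ± 0.18 at 24 h. With the floor at the 20th percentile directions turned: 95292_at gave -0.06 ± 0.60 at 72 h and 0.12 ± 0.60 at 24 h, and 105025_at gave 0.29 ± 0.69 at 72 h and -0.51 ± 0.69 at 24 h. With PBS at 24 h as the baseline, the 72 h ragweed lungs differed by -0.07 ± 0.17 with 95292_at at the 40th-percentile floor. On first-version B, 105025_at gave 0.36 ± 0.27 at 72 h, the opposite sign to version 2 B. The probe sets 102655_at and 102656_at lay between 9.623 and 264.8 in all 8 samples of first-version A, below the floor.

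Itgam, which encodes CD11b, was below the floor in all 8 samples of first-version A. It gave 211.0 and 248.2 in ragweed and 77.99 and 68.04 in PBS lungs at 72 h, and 142.3 and 92.28 in ragweed and 108.5 and 236.3 in PBS lungs at 24 h. On version 2 A it gave 326.7 and 215.8 in ragweed lungs at 72 h, against 141.8 and 149.3 in PBS lungs at 72 h and 43.87 and 22.22 in PBS lungs at 24 h, so that 1 ragweed sample exceeded the floor. With the floor at the 20th percentile, the 72 h log2 difference on first-version A was 1.12 ± 0.41, with an interval of 0.19 to 2.05 (limma adjusted p = 0.45), and the 24 h difference was -0.39 ± 0.41 (limma adjusted p = 0.869). With no floor other than an intensity of 1, the 72 h value was 1.65 ± 0.63 (limma adjusted p = 0.484).

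**Figure D2:**
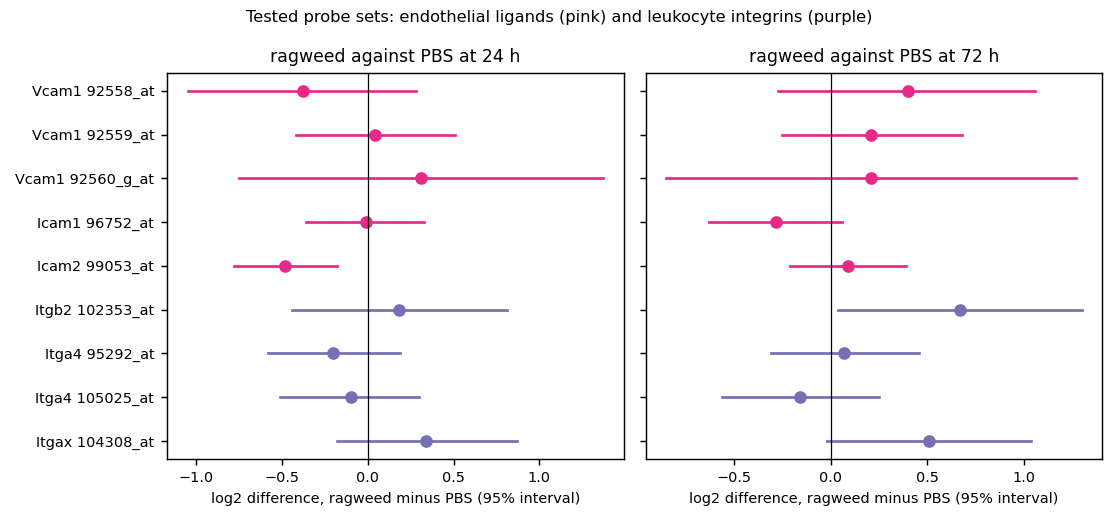
Log2 difference, ragweed minus PBS, of the 9 tested probe sets at 24 h (left) and 72 h (right); points are estimates, lines are 95% intervals, pink marks endothelial ligands and purple leukocyte integrins. The interval lies wholly below 0 for Icam2 at 24 h and wholly above 0 for Itgb2 at 72 h, and neither passed the adjusted test.

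In the groups as a whole, 4 of the 9 probe sets had both ragweed samples above both PBS samples at 72 h (92558_at of Vcam1, Icam2, Itgb2 and Itgax; 18% of all tested probe sets did so), and 1 had both below (Icam1; 17.8% of all). At 24 h none had both above (16.3% of all) and 2 had both below (92558_at of Vcam1 and Icam2; 17.8% of all). Between the PBS times, 71 probe sets (0.281%) were called and no member, and none of the 9 reached an unadjusted p under 0.05 (8.34% of all did). The log2 difference of PBS at 72 h over PBS at 24 h was 0.34 ± 0.27 for Itgb2, 0.04 ± 0.23 for Itgax, 0.07 ± 0.13 for Icam2, -0.01 ± 0.15 for Icam1 and -0.09 ± 0.29 for 92558_at of Vcam1. All of these intervals included 0.

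The same samples were also read on version 2 A, except those of ragweed at 24 h. There Itgax gave 2839 and 2608 in ragweed lungs at 72 h, against 1191 and 1095 in PBS lungs at 72 h and 997.3 and 808.4 in PBS lungs at 24 h. The ragweed samples were above all PBS samples by a wide gap. The log2 difference at 72 h was 1.25 ± 0.16, with an interval of 0.88 to 1.62 (limma adjusted p = 0.0175 over the 8044 probe sets tested on that array; 168 of them, 2.09%, were called). Against the PBS samples of 24 h it was 1.60 (limma adjusted p = 0.00303). When the 2 versions of the A array were averaged per sample, it was 0.88 ± 0.17 (limma adjusted p = 0.00864). In that average 5.38% of 6283 probe sets were called in either direction, and 3.49% were called higher. The estimate on first-version A, 0.51, lay below the version 2 interval. The call on version 2 A did not hold when any 1 of the 4 samples of 72 h was left out. The difference then ran from 1.19 to 1.31. Such fits leave 1 sample in a group and called fewer probe sets over the whole array than the full fit.

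The other members differed less on version 2 A. Itgb2 gave 1220 and 1609 in ragweed and 1390 and 710.9 in PBS lungs at 72 h, which overlapped, with a difference of 0.50 ± 0.33. Icam2 gave 2320 and 2070 in ragweed and 2793 and 2948 in PBS lungs at 72 h. Both ragweed samples were lower, by a log2 difference of -0.39 ± 0.12 (limma adjusted p = 0.16), while first-version A gave 0.09 for samples of the same codes. Icam1 gave 3408 and 3444 in ragweed and 4307 and 3412 in PBS lungs, a difference of -0.16 ± 0.13. Relative to PBS at 24 h on version 2 A, Itgb2 differed by 1.09 ± 0.33 (limma adjusted p = 0.0841), Icam2 by -0.15 ± 0.12 (limma adjusted p = 0.437) and Icam1 by -0.02 ± 0.13. The ratio of the 3' to the 5' probe set of beta-actin, a measure of RNA and labelling quality, was 0.801 and 0.578 in ragweed samples of 72 h on version 2 A, against 0.189 and 0.198 in PBS samples of 72 h and 0.535 and 0.437 in PBS samples of 24 h. On first-version A it was 0.915 and 0.88 in ragweed samples of 72 h and 0.798 and 0.968 in PBS samples of 72 h. The part of this ratio in the version 2 A differences was not tested.

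Vcam1 on version 2 A depended on which PBS samples it was set against. With 92558_at it gave 1523 and 1819 in ragweed lungs at 72 h, against 1327 and 1451 in PBS lungs at 72 h and 834.2 and 1052 in PBS lungs at 24 h. The 3 groups did not overlap. Ragweed at 72 h exceeded PBS at 72 h by 0.26 ± 0.18 on the log2 scale (limma adjusted p = 0.48) and PBS at 24 h by 0.83 ± 0.18 (limma adjusted p = 0.031; 864 of 8044 probe sets, 10.7%, were called against PBS at 24 h). Against the PBS samples of both times together it did not pass, at 0.55 ± 0.15 (limma adjusted p = 0.0759; 7.7% of probe sets were called). With 92560_g_at the differences were 0.56 ± 0.27 against PBS at 72 h (limma adjusted p = 0.327) and 1.09 ± 0.27 against PBS at 24 h (limma adjusted p = 0.0478), and 0.83 ± 0.23 against both times, which did not pass (limma adjusted p = 0.0786). With 92559_at they were -0.28 ± 0.24 and 0.46 ± 0.24, neither of which passed. PBS lungs at 72 h were themselves above PBS lungs at 24 h by 0.57 ± 0.18 with 92558_at, 0.54 ± 0.27 with 92560_g_at and 0.74 ± 0.24 with 92559_at, and none of these steps passed the adjusted test (0.796% of probe sets were called between the PBS times on version 2 A). On first-version A the difference of 92558_at from PBS at 24 h was 0.31 (limma adjusted p = 0.752).

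**Figure D3:**
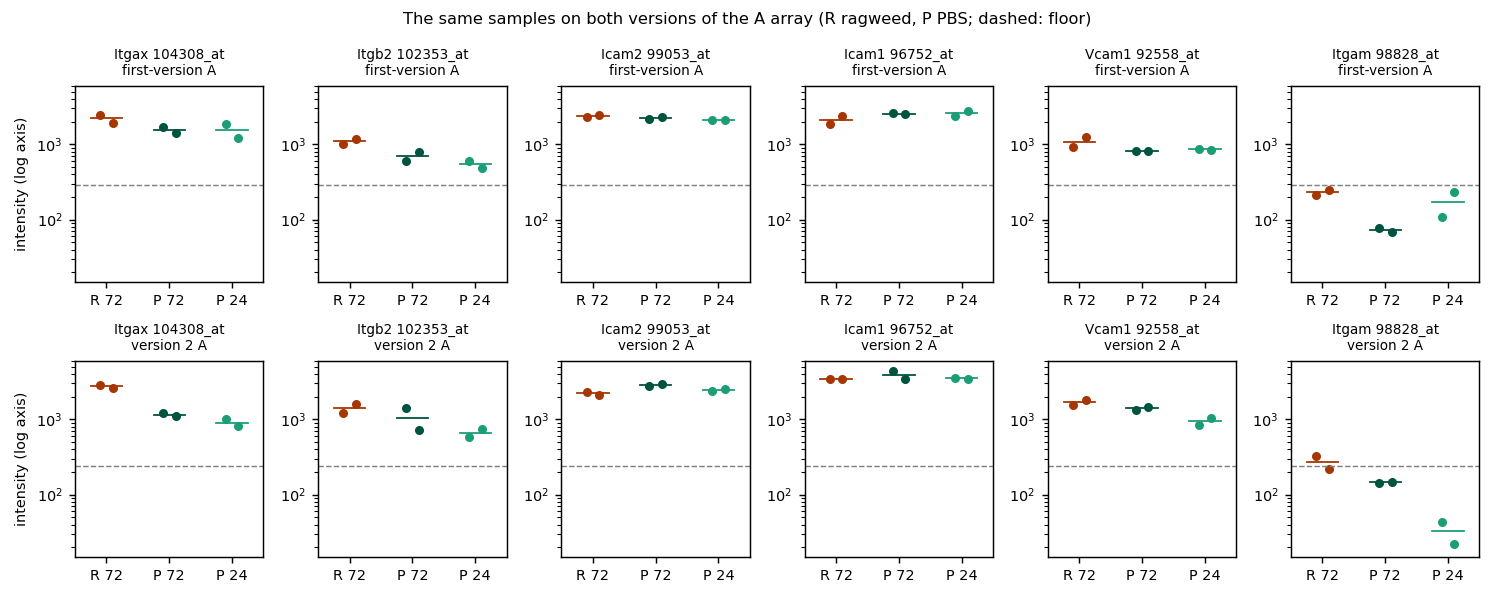
Intensity of 6 member probe sets on first-version A (top) and version 2 A (bottom), on a log axis, in ragweed 72 h, PBS 72 h and PBS 24 h samples (points are samples, bars are group means, the dashed line is the floor). Both ragweed samples of Itgax lie above all PBS samples on both versions, by a wider gap on version 2 A. Icam2 lies lower in ragweed than in PBS samples of 72 h on version 2 A alone, and 1 ragweed sample of Itgam exceeds the floor on version 2 A.

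Markers of the cells that carry these molecules were set beside them. Over 9 measured pan-leukocyte genes, the summed intensity was 28390 and 27940 in ragweed and 20600 and 20480 in PBS lungs at 72 h, and 18880 and 19640 in ragweed and 14890 and 16010 in PBS lungs at 24 h. All 9 had a positive log2 difference at 72 h (median 0.48) and 7 of 9 at 24 h (median 0.36), and none was called against PBS at either time. From 24 h to 72 h all 9 also rose within the PBS lungs (median 0.52), where none was called. Within the ragweed lungs 8 of the 9 rose between these times (median 0.66), and 1 was called higher (0.305% of all probe sets were called in either direction). Cd53 and Cd52, surface proteins of most leukocytes, had log2 differences of 0.95 ± 0.20 (limma adjusted p = 0.13) and 0.88 ± 0.18 (limma adjusted p = 0.121) at 72 h. Ptprc, the pan-leukocyte phosphatase CD45, gave 0.04 ± 0.27. The part of these markers in the values of Itgb2 and Itgax was not tested.

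Cell types that are known to carry CD11c or CD11b were read in the same way. Of 9 measured macrophage and monocyte markers, 1 rose at 72 h, the pore-forming protein gene Mpeg1, by 1.38 ± 0.23 on the log2 scale (limma adjusted p = 0.0498). Its values were 3665 and 3372 in ragweed and 1388 and 1310 in PBS lungs. The summed intensity of the 9 was 47460 and 55180 in ragweed and 53720 and 48140 in PBS lungs at 72 h, which overlapped. Most of that sum was Lyz2, the lysozyme gene, at 26780 and 35950 in ragweed and 41670 and 37860 in PBS lungs. Without Lyz2, left out after its values were seen, the sum was 20680 and 19230 in ragweed and 12050 and 10280 in PBS lungs at 72 h, which did not overlap. Of the 9 genes, 8 had a positive log2 difference at 72 h (median 0.49) and 5 at 24 h (median 0.15). Of 6 measured dendritic cell markers, Cd83, a marker of mature dendritic cells, rose by 1.23 ± 0.20 (limma adjusted p = 0.0456). Its PBS samples of 72 h, at 160.6 and 255, both lay below the floor of 291.6, so this difference was taken from the floor. Only 2 of the 6 genes had a positive log2 difference at 72 h (median -0.44). The list sums of 4037 and 5616 in ragweed and 5191 and 5346 in PBS lungs overlapped. Of 6 measured B cell markers, Cd22, an inhibitory B cell receptor, rose by 1.38 ± 0.20 (limma adjusted p = 0.0289). Its PBS samples of 72 h gave 328.5 and 89.6, the latter below the floor. In that list 3 of the 6 genes had a positive log2 difference at 72 h (median -0.05). Relative to PBS at 24 h, where 0.935% of all probe sets were called, Mpeg1 (1.75 ± 0.23, limma adjusted p = 0.0115) and Cd83 (1.20 ± 0.20, limma adjusted p = 0.0359) passed, while Cd22 (1.01 ± 0.20, limma adjusted p = 0.0709) did not. None of the 7 measured neutrophil, 2 eosinophil, 8 T cell, 5 platelet, 8 alveolar type I or 6 alveolar type II markers was called at either time.

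Endothelial markers bear on the ligands. Over 14 genes the summed intensity was 52810 and 59910 in ragweed and 65020 and 61440 in PBS lungs at 72 h, and 58660 and 59120 in ragweed and 62650 and 59030 in PBS lungs at 24 h. The median log2 difference was -0.18 at 72 h and -0.07 at 24 h. Ramp2, a co-receptor of adrenomedullin, fell by 0.65 on the log2 scale at 72 h (SE 0.10, limma adjusted p = 0.0315), and by 0.81 relative to PBS at 24 h (SE 0.10, limma adjusted p = 0.00735). In the average of both times Kdr, the VEGF receptor, fell by 0.78 (SE 0.13, limma adjusted p = 0.0464) and Cdh5, the VE-cadherin of endothelial junctions, fell by 0.55 (SE 0.09, limma adjusted p = 0.0353), while Vwf, a clotting factor stored by endothelium, rose by 0.48 ± 0.08 (limma adjusted p = 0.0438). Kdr and Vwf were named after their values were seen. The part of these markers in the values of Icam2 and Vcam1 was not tested.

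**Figure D4:**
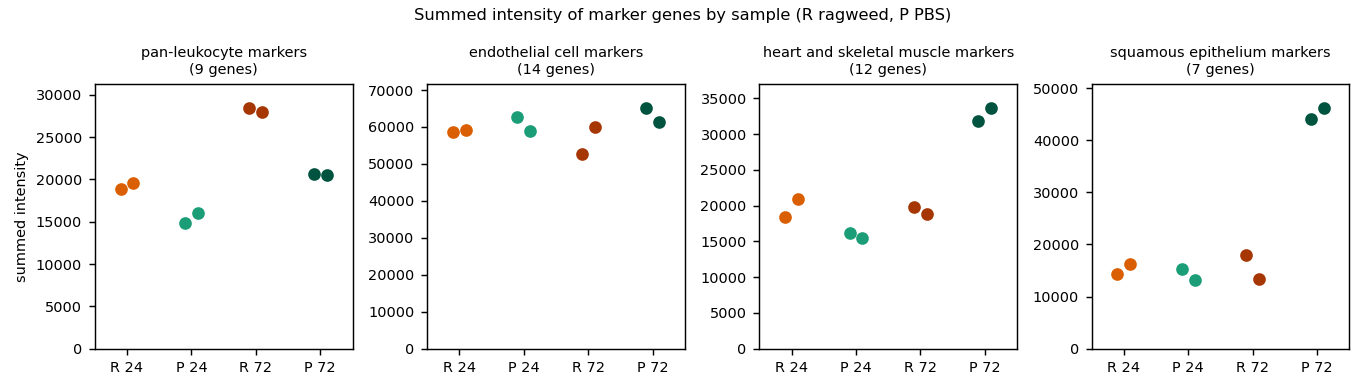
Summed intensity of 4 marker lists in each sample, with axes starting at 0 and the groups from left to right ragweed then PBS of 24 h and ragweed then PBS of 72 h (points are samples 1a and 1b). Pan-leukocyte sums are higher in ragweed than in PBS lungs at both times, and higher at 72 h than at 24 h in both treatments. The squamous and muscle sums stand out in the PBS samples of 72 h.

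The other genes of the adhesion pathway were described from 5 lists, none of which had a call in either direction at 24 h or 72 h. None had a call in the difference between the times either. Each gene named from these lists is shown only at the time with its larger difference from PBS. At the other time the difference was smaller and of the same sign, so no time pattern should be read from these values. Of 19 other integrin subunits 16 were measured, with a median log2 difference of -0.05 at 72 h and -0.07 at 24 h. Itga3 and Itga1, alpha chains that bind laminin and collagen, had 72 h differences of -0.89 ± 0.19 (limma adjusted p = 0.129) and -0.91 ± 0.36 (limma adjusted p = 0.456). Of 16 other endothelial junction and adhesion genes 13 were measured, with medians of -0.09 at 72 h and -0.02 at 24 h. Cdh5 gave 6673 and 7043 in ragweed and 11430 and 9151 in PBS lungs at 72 h. Glycam1, a mucin that carries L-selectin ligands, had a 24 h difference of -0.82 ± 0.25 (limma adjusted p = 0.358).

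Of 13 selectin ligands and glycosyltransferases 11 were measured, with medians of 0.06 at 72 h and 0.13 at 24 h. Selplg, which encodes PSGL-1, the main ligand of P-selectin, had a difference of 0.63 ± 0.19 at 24 h (limma adjusted p = 0.366), and St3gal4, a sialyltransferase that builds selectin ligands, one of 0.86 ± 0.36 at 72 h (limma adjusted p = 0.506). Of 14 genes of integrin activation 12 were measured, with medians of 0.03 at 72 h and 0.00 at 24 h. Apbb1ip, the Rap1 effector RIAM, and Skap2, an adaptor of myeloid integrin signalling, had 24 h differences of 0.51 ± 0.30 and 0.50 ± 0.19. Of 15 genes of NF-kappaB signalling, which is known to induce Icam1, Vcam1 and Sele, 11 were measured, with medians of 0.03 at 72 h and -0.04 at 24 h. Il1b, an inflammatory cytokine, had a 72 h difference of 0.57 ± 0.25 (limma adjusted p = 0.532). Its PBS samples of 72 h gave 226.2 and 362.9, the former below the floor. Nfkb2, an NF-kappaB subunit, had a 72 h difference of 0.38 ± 0.27 (limma adjusted p = 0.728).

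Across the 8 samples, the log2 values of the members did not run together as 2 blocks. As a description, with samples that share arrays and groups, Pearson's r was -0.80 between Icam1 and Itgax, -0.66 between Icam1 and Itgb2, 0.52 between Itgb2 and Itgax, 0.54 between Vcam1 and Icam2, and 0.15 between Vcam1 and Itga4. Among 12840 genes, the pattern most like Itgb2 was that of H2-Eb1, an MHC class II chain (r = 0.972), followed by Disp3 (r = 0.96). The patterns most like Itgax were those of Nat10 (r = 0.955) and Cdh1 (r = 0.947). For Icam1 they were Jade2 (r = 0.98) and Rad51ap1 (r = 0.971), and for Icam2 Spg7 (r = 0.976) and Clk1 (r = 0.962). For Vcam1 they were Klf11 (r = 0.984) and Tada2b (r = 0.94), and for Itga4 Ergic1 (r = 0.981) and Lzic (r = 0.975). Itga4 was represented by 95292_at, which was above the floor in only 3 of the 8 samples and was set to the floor in the others. Its r values, also the 0.15 with Vcam1, therefore rest on few measured values. With so many genes and 8 samples, each r is given as a description.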

How the data were processed

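Mouse lung RNA was measured on 47 arrays, 46 of them distinct: an unlettered ragweed array of 24 h (first-version A) equalled the 1a array divided by a constant of 2.6272. The deposited values are linear intensity, 1 per probe set and array. The software behind them is not stated in the sources used here. As the deposited intensity values show, the authors brought version 2 arrays, and the ragweed arrays of the first version, to a common 2% trimmed mean near 800, and left first-version PBS arrays unscaled (trimmed means of 80.64 to 376.5).

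The 9977 first-version A probe sets shared with version 2 A were scaled to 800 and quantile normalised, and version 2 B and C kept their scale. Values were floored at the 40th percentile and taken to log2. Probe sets that exceeded the floor on 2 or more arrays entered a limma fit (version 3.58.1, R 4.3.3) with a mean for each group, all 8 samples, 4 residual degrees of freedom and a mean-variance trend. Benjamini-Hochberg adjustment covered all 25250. The other version of each array was fitted apart. The fit was tested on simulated data. The planted changes were larger than any difference of a member, so how often changes of the members' size would be called was not tested. Intervals are 95%, and ± is an SE.

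Symbols came from the platform annotation, updated by gene ID; 10298 of 12654 first-version A probe sets had 1 symbol. For each gene list, 1 probe set stood for a gene (tested ones only, A before B before C, then the brightest). Named from each list were up to 4 genes called in either comparison of ragweed with PBS or, with none called, up to 2 with the largest mean difference. For each measured member, the 2 genes with the highest r were named. The members, lists and tests were chosen with earlier results of these data known. Deviations from the group means gave no sign that codes 1a and 1b pair the samples (correlations from -0.08 to 0.04). Such correlations cannot exclude a pairing by design. Alternatives covered normalisation, floor, filter, array version, adjustment, samples and PBS reference.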

Additional observations from a re-analysis of the deposited data

How the results depend on the processing

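No member was called in any of the 6 comparisons under the other settings tried on the main arrays; an exception came at 72 h from the other version of each array, on which 1 member, Itgax, was called: 1.25 on the log2 scale, with an adjusted p of 0.0456 over 3 tables (limma) and 0.182% of 26995 probe sets called higher. Alternatives on that Itgax value were chosen after seeing the data. It was 1.43 against PBS samples of both times, 1.33 after quantile normalisation and 1.25 with a floor at the 20th percentile, and stayed called in each. Leaving out 1 sample gave 1.19 to 1.31: the call was lost in all 4 fits without a sample of 72 h and kept in the 2 without a PBS sample of 24 h. Each of these fits leaves 1 sample in a group and called fewer probe sets over the whole array than the full fit.

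Against PBS samples of 24 h, 2 probe sets of Vcam1 were also called on version 2 A, as were 10.7% of its 8044 probe sets; against both times neither was (limma adjusted p = 0.0759 and 0.0786). Changing 1 choice on the main arrays, the 72 h log2 difference ranged from 0.34 to 0.68 for Itgax, 0.48 to 1.01 for Itgb2, 0.19 to 0.61 for 92558_at of Vcam1, -0.46 to -0.10 for Icam1 and 0.04 to 0.16 for Icam2. Changing 1 choice on version 2 A, it ranged from 1.19 to 1.60, 0.01 to 1.09, 0.13 to 0.83, -0.33 to 0.01 and -0.47 to -0.15 for the same probe sets. At 24 h Icam2 ranged on the main arrays from -0.61 to -0.36. With 1a and 1b as a replicate block, 0 members were called; Itgb2 gave 0.67 (limma adjusted p = 0.57) and Itgax 0.51 (limma adjusted p = 0.534) at 72 h, and the block changed no other call of a member. The correlations of deviations gave no sign that the codes pair samples.

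The number of calls over all probe sets moved more. At 24 h there were 58, with 0 to 121 under the alternatives, and at 72 h 133, with 2 to 238. The lowest counts, 0 at 24 h and 2 at 72 h, came from fits to the 4 samples of a comparison alone, which leave fewer degrees of freedom. The average of both times gave 164 calls (10 to 256), the difference between the times 9 (0 to 123), ragweed at 72 h against 24 h 77 (0 to 152; 47 with the replicate block) and PBS at 72 h against 24 h 71 (0 to 118). Signal near the floor limits what can be said of Sele, Selp, Itgam and Itga4.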
